A study of Mus musculus with 16 samples.

Results

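The cytosolic ribosomal proteins, the proteins of the ribosome that translates the messenger RNAs made in the nucleus, were examined as a gene family in mouse bone marrow-derived monocytes (BMDMs). Members were taken by gene name, as Rps or Rpl followed by a number with or without a short suffix, together with Rplp0, Rplp1, Rplp2 and Rpsa. This gave 83 of the 21898 genes in the table, 32 of the small (40S) and 51 of the large (60S) subunit. The naming rule used no values, but the family was chosen with earlier results of these data known. RNA sequencing libraries were made from BMDMs of wild-type C57BL/6 mice in 4 groups of 4. M-CSF, which cells of the macrophage lineage need to survive, was present at 50 ng/ml in every culture, and M + vector received only the carrier of the inhibitor besides, called vector. M + iBRD9 received iBRD9, which blocks the bromodomain of BRD9, a protein of the chromatin remodelling complex called non-canonical BAF. MR + vector received RANKL at 100 ng/ml, the cytokine that starts osteoclast differentiation, and MR + iBRD9 received RANKL with iBRD9. The inhibitor blocks a domain of BRD9 and does not remove the protein. Whether the 4 libraries of a group stem from different cultures or mice is not stated in the labels, so that the p-values rest on a spread between libraries that may be technical.

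Ribosomal proteins are made in the cytoplasm, carried into the nucleus by importins and chaperones, and built onto ribosomal RNA in the nucleolus. Their mRNAs are among the most abundant of growing cells, and many begin with a C followed by a run of pyrimidines, the terminal oligopyrimidine (TOP) tract, through which the kinase mTORC1 and the RNA-binding protein LARP1 govern their translation. Osteoclast precursors enlarge and make much new protein as they differentiate, and both M-CSF and RANKL signal through pathways that reach mTORC1. The level of an mRNA in sequencing libraries does not give its translation, nor the amount of ribosome.

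The start of the gene is shown for 8 members that changed in at least 1 comparison described here and whose annotated first base opens such a tract. Promoter windows of RefSeq, on GRCm38.p6, were matched for 63 of the 83 members. In each line the first 10 bases lie before the annotated start, base 11 is the first transcribed base, and capitals mark the longest unbroken run of C and T that holds it.
Rps6 (chr4:86857353-86857377, minus strand): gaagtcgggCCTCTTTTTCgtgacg
Rps18 (chr17:33955651-33955675, minus strand): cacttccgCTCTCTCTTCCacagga
Rplp2 (chr7:141447641-141447665, plus strand): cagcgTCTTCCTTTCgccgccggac
Rpl14 (chr9:120571507-120571531, plus strand): ggCCCTCTCTCTTCTCgctgagcgc
Rps10 (chr17:27635230-27635254, minus strand): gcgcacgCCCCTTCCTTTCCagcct
Rps27 (chr3:90213634-90213658, minus strand): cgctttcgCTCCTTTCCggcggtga
Rpl35a (chr16:33056472-33056496, plus strand): gcttgCCTTCCTCTTTCCgccatct
Rpl38 (chr11:114668570-114668594, plus strand): aagcctcgTTCTTTCCCCgttctct

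A start at C followed by 4 or more bases of C or T was annotated for 13 of the 63 members (20.6%), against 3.01% of the 27025 genes with a window. None of 69 mitochondrial ribosomal protein genes and none of 43 ribosome biogenesis genes had such a start. A run of at least 8 bases of C and T anywhere between 10 bases before and 20 bases after the start was found in 38.1% of the members and 13.0% of all genes. Of other motifs searched on both strands over the window of 250 bases before to 50 after the start, the ETS core CCGGAA was present in 55.6% of the members and 16.7% of all genes, and in 58.0% of the mitochondrial ribosomal protein genes. The YY1 motif GCCATNTTG was present in 6.35% and 2.90%, the TATA box TATAAA in 11.1% and 15.7%, the E-box CACGTG in 9.52% and 8.09%, and the GC box GGGCGG in 61.9% and 38.2% of members and all genes, respectively. A match of letters is not a bound site, and annotated starts can lie some bases from the start that a cell uses.

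Total counts ranged from 15372775 to 18987926 per library, and 11559 genes passed the filter on low counts and were tested with edgeR. The macrophage marker list summed to 20899 to 24967 CPM (counts scaled to a common library size) over the 16 libraries, most of it from the lysozyme gene Lyz2. With RANKL and vector, 5 of the 8 markers were called lower, among them the M-CSF receptor gene Csf1r at -0.32 ± 0.03 (adjusted p = 4.96e-10) and Mertk, a receptor for dying cells, at -1.08 ± 0.07 (adjusted p = 1.15e-14), and Lyz2 was called higher at 0.27 ± 0.03 (adjusted p = 7.2e-08). With RANKL and iBRD9, 6 were called lower and 0 higher. Of all tested genes, 20.6% were called lower and 20.1% higher with RANKL and vector, and 25.8% lower and 24.6% higher with RANKL and iBRD9. Of other cells that bone marrow cultures can hold, the T and NK cell list was at 0 to 0.119 CPM, with Cd3e, Cd3d and Gzma at 0, and the B cell list at 1.61 to 3.73 CPM. The neutrophil list stood at 66.5 to 73.2 CPM in M + vector, 64.3 to 90.7 in M + iBRD9, 55.5 to 65.7 in MR + vector and 33.9 to 49.8 in MR + iBRD9. The erythroid and megakaryocyte list stood at 200.1 to 230.0 CPM in M + vector, 188 to 238 in M + iBRD9, 104 to 119.7 in MR + vector and 87.5 to 98.0 in MR + iBRD9. The stromal and endothelial list stood at 17.7 to 22.4, 16.03 to 22.2, 11.6 to 14.0 and 10.9 to 18.8 CPM in the same order, with 3 of 5 tested called lower with RANKL and vector. The part of these cells in the values of the ribosomal protein genes was not tested.

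Of the family, 79 of the 83 members passed the filter on low counts, all 32 of the 40S and 47 of the 60S subunit. The 4 others were Rpl10l, with no read in any library, which allows 3 counts or 0.158 to 0.195 CPM per library, Rpl3l with 19 reads over the 16 libraries, Rpl39l with 33, and Rpl24 with 89. Rpl10l, Rpl39l and Rpl3l are the copies of Rpl10, Rpl39 and Rpl3 known from testis and striated muscle. Rpl24 belongs to every ribosome, and it stood at 1 to 11 reads per library, while the median of the tested members was 336.8 CPM. Another 5 constitutive or paralogous members lay below 20 CPM, Rps10 at 2.64, Rpl23a at 5.20, Rpl13a at 5.39, Rpl22l1 at 7.28 and Rpl35 at 14.4 CPM. Ribosomal protein genes have many processed copies in the genome, and the sources used here do not give how reads that fit several places were counted, so the levels of members with near-identical copies are uncertain.

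Per length, the levels of the tested members ran from 1.15 to 1139 FPKM (fragments per kilobase of gene length, scaled to the size of the library) in the mean of all libraries, with a median of 158. Rplp1, one of the acidic stalk proteins that recruit elongation factors, was the highest at 1139 FPKM, followed by Rplp0, the base of the same stalk, at 734 and Rps3a1, a 40S protein near the mRNA exit, at 713 FPKM. The lowest tested were Rps10 at 1.15, Rpl13a at 2.55 and Rpl22l1 at 3.65 FPKM. The deposited FPKM used gene lengths of 383 to 6270 bases, while the coding sequences of these genes run from 75 to 1257 bases, and the order of the members depended on which length was used (Spearman rho 0.727 between FPKM and reads per coding kilobase, across the 79 tested members, which share the libraries). As CPM per coding kilobase, Rpl41, whose protein is the shortest of the ribosome, led with 6593, followed by Rplp1 with 1662, Rps24 with 1336 and Rplp0 with 1279.

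The share of all counts that fell on the 83 genes was lowest with M-CSF and vector and higher in each of the other groups. It was 2.58%, 2.71%, 2.66% and 2.72% in M + vector, and 2.59%, 2.95%, 2.86% and 2.92% in M + iBRD9. It was 2.88%, 2.98%, 3.11% and 2.87% in MR + vector, and 2.97%, 2.95%, 3.28% and 3.05% in MR + iBRD9. Every RANKL library lay above every M + vector library, while the M + iBRD9 libraries overlapped both the M + vector and the RANKL groups. The group means were 2.67% ± 0.06 (SD, n = 4), 2.83% ± 0.16, 2.96% ± 0.11 and 3.06% ± 0.15. Both subunits contributed, with means of 1.13%, 1.21%, 1.27% and 1.31% for the 40S and 1.54%, 1.62%, 1.69% and 1.75% for the 60S genes in the same order. In bulk samples a change in the share of cells of a type and a change in the RNA of each cell cannot be told apart.

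**Figure D1:**
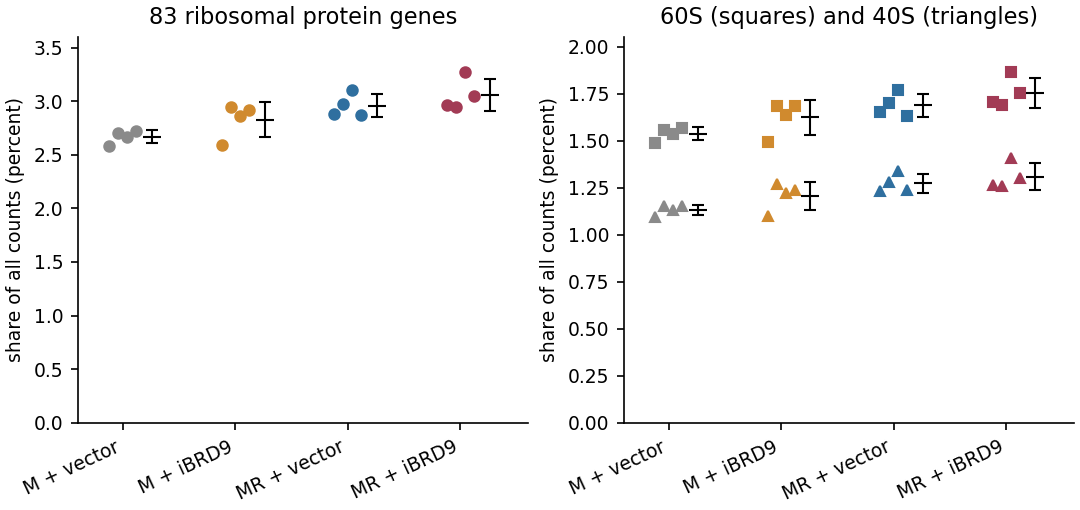
Share of the total counts of each library that fell on ribosomal protein genes, in percent, by group, for all 83 genes on the left and for the 60S (squares) and 40S (triangles) genes on the right, with 1 point per library and black marks for the group mean ± SD of 4 libraries. The 8 RANKL libraries sit between 2.87% and 3.28% for both subunits together, above the 4 M + vector libraries at 2.58% to 2.72%.

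RANKL raised part of the family by small amounts in vector-treated BMDMs, in the comparison that asks what the start of osteoclast differentiation does to these genes. Of the 79 tested members 26 were called higher and 0 lower at an adjusted p below 0.05, which is 32.9% of them, where 20.1% of all tested genes were called higher and 20.6% lower. Before adjustment, 36 members were higher and 0 lower at p below 0.05, and DESeq2 called 26 higher and 0 lower. The median change of the members was 0.12 on the log2 scale, against a median of 0.00 over all genes, and 74 of the 79 lay above 0. The spread was narrow, with an SD of 0.11 across members against 0.54 across all tested genes. Of the 40S genes 11 of 32 and of the 60S genes 15 of 47 were called, with a median of 0.12 in each subunit. Leaving out 1 library at a time gave 20 to 32 calls, and fitting only the groups compared gave 44.

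By p-value the leading calls were those of Rplp0, Rps2, Rpl9 and Rpsa, genes of both subunits. Rplp0, the base of the stalk at which elongation factors act (ENSMUSG00000067274, GRCm39 chr5:115697526-115701786, plus strand), stood at 1086, 1106, 1083 and 1144 CPM in the 4 M + vector libraries and at 1299, 1285, 1336 and 1266 CPM in MR + vector. All 4 RANKL libraries were above all 4 controls, and the log2 change was 0.23 ± 0.04 (SE, adjusted p = 5.06e-06). Of the other stalk genes, Rplp2 went from 207, 229, 222 and 189 CPM to 244, 249.8, 252 and 240.1 CPM without overlap, a change of 0.22 ± 0.06 (adjusted p = 0.00286), while Rplp1 was not called at 0.04 ± 0.05 (adjusted p = 0.626). Of the 3 stalk genes, the most abundant per length was the 1 without a call.

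Rpsa, the 40S protein that also occurs as a laminin receptor (ENSMUSG00000032518, GRCm39 chr9:119956755-119961435, plus strand), was at 994, 1032, 1003 and 1029 CPM without RANKL and at 1155, 1189, 1267 and 1152 CPM with it. The lowest RANKL library exceeded the highest control, with a change of 0.23 ± 0.04 (SE, adjusted p = 5.78e-05). Rps2, which lies at the entry of the mRNA channel, went from 904, 938, 892 and 985 to 1054, 1075, 1159 and 1049 CPM, a change of 0.22 ± 0.04 (adjusted p = 2.26e-05). Rpl9, a 60S protein close to the stalk base, went from 239.6, 248, 252 and 243 to 292, 296, 301 and 281 CPM, a change of 0.25 ± 0.05 (adjusted p = 3.28e-05). Neither gene overlapped between the groups.

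Rps6, the 40S protein phosphorylated by S6 kinase downstream of mTORC1, was at 586, 603, 619 and 633 CPM in M + vector and 694, 678, 711 and 696 CPM in MR + vector (ENSMUSG00000028495, GRCm39 chr4:86772897-86775649, minus strand). Its change of 0.19 ± 0.04 (adjusted p = 0.000225) was called, and the groups did not overlap. Rps18, Rps27a, the latter made as a fusion to ubiquitin, and Rpl14 changed by 0.26 ± 0.05 (adjusted p = 0.000111), 0.28 ± 0.05 (adjusted p = 0.000104) and 0.22 ± 0.05 (adjusted p = 0.000245). The 3 were added after their values were seen, as were Rpl23a and Rpl30. The largest called change was that of Rpl23a, which docks chaperones and the signal recognition particle at the exit tunnel, at 0.60 ± 0.18 (adjusted p = 0.0094), but this gene had only 50 to 144 reads per library. Rpl30 followed with 0.34 ± 0.09 (adjusted p = 0.00309).

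Members with known roles beyond the ribosome were partly called. Rps19, the gene most often mutated in Diamond-Blackfan anaemia in people, was called at 0.15 ± 0.05 (adjusted p = 0.0125), and Rps3, which has also been linked to DNA repair, at 0.12 ± 0.04 (adjusted p = 0.0337). Rps3 lost its call without M + vector replicate 1 or 3 or MR + vector replicate 2 or 3, with changes of 0.09 to 0.11. Rpl5 and Rpl11, which with an rRNA form a particle that can bind MDM2, were not called at 0.06 ± 0.04 (adjusted p = 0.249) and 0.11 ± 0.05 (adjusted p = 0.109). Rpl13a, part of a complex that silences translation in interferon-treated human monocytes, was not called at 0.33 ± 0.16 (adjusted p = 0.0933), on 65 to 128 reads per library.

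With iBRD9 present, RANKL again moved more members up than down. In the fit used throughout, the share called higher was no larger than among all genes. Of the 79 members 19 were called higher, 24.1%, and 1 lower, 1.27%, where 24.6% of all genes were called higher and 25.8% lower. The median was 0.05, against -0.01 over all genes, and 51 members lay above 0. By subunit the counts were 7 of 32 for the 40S, and 12 of 47 higher and 1 lower for the 60S. The count of higher calls was 11 without M + iBRD9 replicate 1 and 29 without M + iBRD9 replicate 4. Of all genes, 2756 of 11640 and 3030 of 11655 were called higher under these omissions. The members' share thus lay below that of all genes without M + iBRD9 replicate 1 and above it without M + iBRD9 replicate 4. The count of lower calls was 4 without M + iBRD9 replicate 1 or without MR + iBRD9 replicate 3, and 0 in 10 of the 16 omissions. Both RANKL comparisons use different libraries, and 14 members were called higher in both, 53.8% of the 26 with vector and 73.7% of the 19 with iBRD9. Among all genes 1956 were called higher in both, 84.2% of 2323 and 68.8% of 2844.

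The smallest p-values were those of Rpl4, Rps6, Rpl8 and Rpsa. Rpl4, which reaches into the tunnel of the nascent chain, was at 855, 883, 893 and 987 CPM in M + iBRD9 and 1011, 1016, 1063 and 1063 CPM in MR + iBRD9, a change of 0.20 ± 0.04 (SE, adjusted p = 0.000109), and the same gene changed by 0.17 ± 0.04 (adjusted p = 0.000985) with vector. Rpl8, which lies near the peptidyl transferase centre, was at 609, 619, 626 and 720.2 CPM and 723, 716, 753 and 755 CPM, a change of 0.20 ± 0.04 (adjusted p = 0.00047). For Rpl8 the fourth M + iBRD9 library stood well above the others of its group and came within the range of MR + iBRD9, and the same library was the highest of its group for Rpl4 without reaching the RANKL values. Rps6 rose from 568, 649, 609.5 and 654 to 689.6, 699, 731 and 699 CPM, and Rpsa from 999.6, 964, 1011 and 1169 to 1135, 1193, 1159.7 and 1233 CPM, with changes of 0.18 ± 0.04 (adjusted p = 0.00021) and 0.19 ± 0.04 (adjusted p = 0.000549). Rps6 did not overlap between these groups, while the fourth M + iBRD9 library of Rpsa exceeded 2 of the MR + iBRD9 libraries. Of the stalk genes Rplp0 was called at 0.14 ± 0.04 (adjusted p = 0.00235), while Rplp2 at 0.05 ± 0.06 (adjusted p = 0.48) and Rplp1 at 0.03 ± 0.05 (adjusted p = 0.71) were not.

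Rpl10, the 60S protein that joins last in the cytoplasm and is needed for the subunits to meet (ENSMUSG00000008682, GRCm39 chrX:73314418-73316741, plus strand), was the 1 member called lower. It was at 784, 823, 813 and 896 CPM in M + iBRD9 and at 770.4, 780.1, 794 and 774 CPM in MR + iBRD9, so that the groups overlapped, and the change was -0.09 ± 0.04 (SE, adjusted p = 0.0396). The call was lost under 17 of 24 alternatives, among them the omission of M + vector replicate 1, 2, 3 or 4, of M + iBRD9 replicate 2, 3 or 4, and of MR + iBRD9 replicate 1, 2 or 4, with changes of -0.09 to -0.04. With vector the change of Rpl10 was -0.06 ± 0.04 (adjusted p = 0.181). Rps10 and Rpl13a were called at 0.67 ± 0.22 (adjusted p = 0.0126) and 0.56 ± 0.15 (adjusted p = 0.00266) with 26 to 68 and 65 to 128 reads per library, and the call of Rps10 was lost without replicate 1 of M + iBRD9 or of MR + iBRD9, at 0.56 and 0.57. Rpl11 was called at 0.13 ± 0.05 (adjusted p = 0.0487), and lost its call without M + iBRD9 replicate 1 or 3, MR + vector replicate 1 or 2 or MR + iBRD9 replicate 3 or 4, at 0.07 to 0.13. Rpl5, Rps3 and Rps19 were not called, at 0.08 ± 0.04 (adjusted p = 0.0723), 0.03 ± 0.04 (adjusted p = 0.583) and 0.06 ± 0.05 (adjusted p = 0.326).

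**Figure D2:**
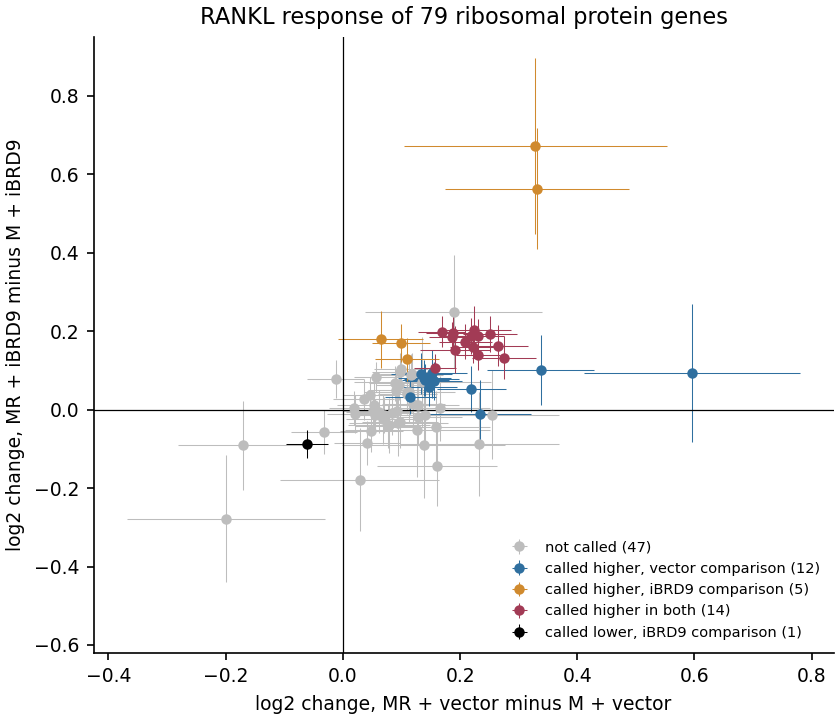
Log2 change of each of the 79 tested members with RANKL in vector-treated cells (horizontal axis) and in iBRD9-treated cells (vertical axis), coloured by the comparison in which the gene was called. Bars are 1 SE from a fit with 4 libraries a group, and 14 members called higher in both comparisons lie to the upper right, with a median over all members of 0.12 with vector and 0.05 with iBRD9.

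iBRD9 without RANKL was followed by higher values of the shortest members, in the comparison that asks what the inhibitor does to precursors held in M-CSF. Of the 79 members 15 were called higher and 0 lower, which is 19.0%, where 3.08% of all genes were called higher and 3.73% lower. Before adjustment, 39 members were higher and 1 lower at p below 0.05. The median change was 0.10, against 0.00 over all genes, and 70 members lay above 0. The 40S genes gave 7 and the 60S genes 8 of the calls. The count rested on a few libraries. It was 1 without M + iBRD9 replicate 2, 2 without M + iBRD9 replicate 3 or without M + vector replicate 1 or 4, and 35 without M + iBRD9 replicate 1. The count of lower calls was 2 without M + iBRD9 replicate 4. DESeq2 gave 4 higher and 0 lower.

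Rps27, a zinc-finger protein of the 40S subunit (ENSMUSG00000090733, GRCm39 chr3:90119829-90120958, minus strand), had the smallest p. It stood at 65.8, 67.9, 69.2 and 57.5 CPM in M + vector and at 73.1, 114, 98.6 and 78.5 CPM in M + iBRD9. All 4 iBRD9 libraries were higher than all 4 controls, with replicates 2 and 3 farthest up, and the change was 0.48 ± 0.10 (SE, adjusted p = 0.0026). Rpl37, one of the zinc-finger proteins of the 60S subunit, was at 102, 106, 115 and 96.7 CPM and 110.1, 181, 158 and 115 CPM, where replicates 2 and 3 were again far above replicates 1 and 4 and the groups overlapped. Its change of 0.43 ± 0.11 (adjusted p = 0.0193) lost its call without M + iBRD9 replicate 2 or 3 or M + vector replicate 1 or 4, at 0.28 to 0.41.

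Rpl36 was at 99.3, 108, 111 and 101 CPM and 112, 159, 139.9 and 126 CPM, with no overlap and a change of 0.36 ± 0.09 (adjusted p = 0.00914), which lost its call without M + iBRD9 replicate 2, at 0.26. With RANKL and vector it was at 126, 125, 134 and 108 CPM and was called at 0.23 ± 0.09 (adjusted p = 0.0314), a call lost without M + vector replicate 1 or 4 or MR + vector replicate 1, 2 or 3, at 0.19 to 0.23. Rpl35a, whose human gene is another of those mutated in Diamond-Blackfan anaemia, went from 115, 127, 122 and 118 to 125, 182, 156 and 138 CPM, a change of 0.32 ± 0.08 (adjusted p = 0.0173) that lost its call without M + iBRD9 replicate 2 or 3 or M + vector replicate 1 or 4, at 0.21 to 0.30. Rpl35a overlapped between the groups in replicate 1 of M + iBRD9. Rps28, named after its values were seen, was called at 0.50 ± 0.13 (adjusted p = 0.02), and lost its call under the same omissions as Rpl35a, at 0.33 to 0.48. The abundant long members that led with RANKL were not called, with Rplp0 at 0.09 ± 0.04 (adjusted p = 0.17), Rpsa at 0.03 ± 0.04 (adjusted p = 0.757) and Rps2 at 0.00 ± 0.04 (adjusted p = 0.967). Rpl30 and Rpl36 were the 2 members called higher both here and with RANKL in vector-treated cells, comparisons that share the M + vector libraries. Rpl30 changed by 0.32 ± 0.09 (adjusted p = 0.0282) here and lost this call without M + iBRD9 replicate 2 or 3 or M + vector replicate 1 or 4, at 0.23 to 0.31.

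When the tested members were placed in 3 classes by coding length, the calls of this comparison fell with length. Of 26 short members, with 75 to 390 coding bases, 12 were called. Of 27 middle members, with 396 to 576 bases, 3 were called, and of 26 long members, with 582 to 1257 bases, 0. The class medians were 0.27, 0.10 and 0.04. The short members called were Rps27, Rpl36, Rpl35a, Rpl37, Rps28, Rpl41, Rpl37a, Rps29, Rpl30, Rps20, Rpl39 and Rpl38, the last known for its part in the translation of Hox mRNAs in mice, and the middle ones included Rps12 and Rps16. Across the 79 members the Spearman rho of the change with coding length was -0.701, and with mean CPM it was -0.45. These points share their libraries, so the values are descriptive.

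With RANKL the order by length was another. The calls in vector-treated cells were 4 short, 8 middle and 14 long members, with class medians of 0.13, 0.11 and 0.14 and a rho of 0.022. In iBRD9-treated cells they were 0 short, 8 middle and 11 long members, with medians of -0.01, 0.05 and 0.08 and a rho of 0.509. The latter comparison has the M + iBRD9 libraries as its reference, of which replicates 2 and 3 stood high for the short members. On the other side of this comparison, replicate 3 of MR + iBRD9 stood high as well. The part of these libraries in the order by length was not tested. Genes outside the family with the same coding length as the short members and at least 50 CPM were compared as a background. Of these 161 genes, 14.3% were called higher and 3.73% lower with iBRD9 without RANKL, with a median of 0.04. Other genes as long as the middle members gave 5.93% higher and 4.07% lower, with a median of 0.02. Those as long as the long members gave 5.63% and 4.07%, with a median of 0.00, and those with longer coding sequences 3.47% and 7.76%, with a median of -0.02. Values thus fell with coding length outside the family too. With RANKL and vector 45 of the 161 were called higher and 41 lower, with a median of 0.00.

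**Figure D3:**
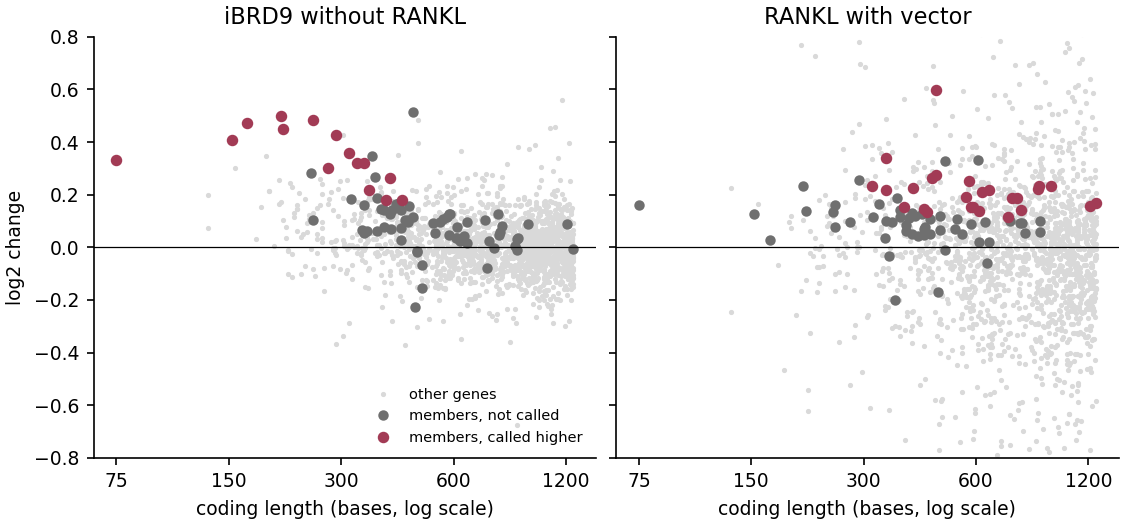
Log2 change of the 79 tested members (large points, coloured where called) and of other genes of at least 50 CPM (small grey points) against coding length in bases on a log axis, for iBRD9 without RANKL and for RANKL with vector. Grey points outside the axis range are not drawn. With iBRD9 the short members rise to a class median of 0.27 and the long ones stay near 0.04, while with RANKL the medians are 0.13 and 0.14.

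The short members also varied most between libraries of 1 group. Their within-group coefficient of variation had a median of 11.6%, against 7.03% for middle members, 4.88% for long members and 4.78% for 4275 other genes of at least 50 CPM. As the mean log2 deviation from the average of all libraries, the short members stood at -0.18, -0.08, -0.10 and -0.25 in M + vector and at -0.14, 0.33, 0.20 and -0.03 in M + iBRD9. They stood at -0.05, 0.00, 0.07 and -0.13 in MR + vector and at 0.02, -0.11, 0.36 and 0.07 in MR + iBRD9. Replicates 2 and 3 of M + iBRD9 and replicate 3 of MR + iBRD9 were thus the highest, and replicate 1 of M + iBRD9 lay among the controls. The other short genes stood at 0.08 and 0.03 in those M + iBRD9 libraries, at -0.08 in replicate 1 and at 0.06 in replicate 4 of that group, and at 0.09 in MR + iBRD9 replicate 3. The part of whatever set these libraries apart in the calls was not tested. Without these 3 libraries, an alternative chosen after the data had been seen, 0 members were called with iBRD9 without RANKL, the median was 0.05, and 39 members were called higher with RANKL and vector.

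**Figure D4:**
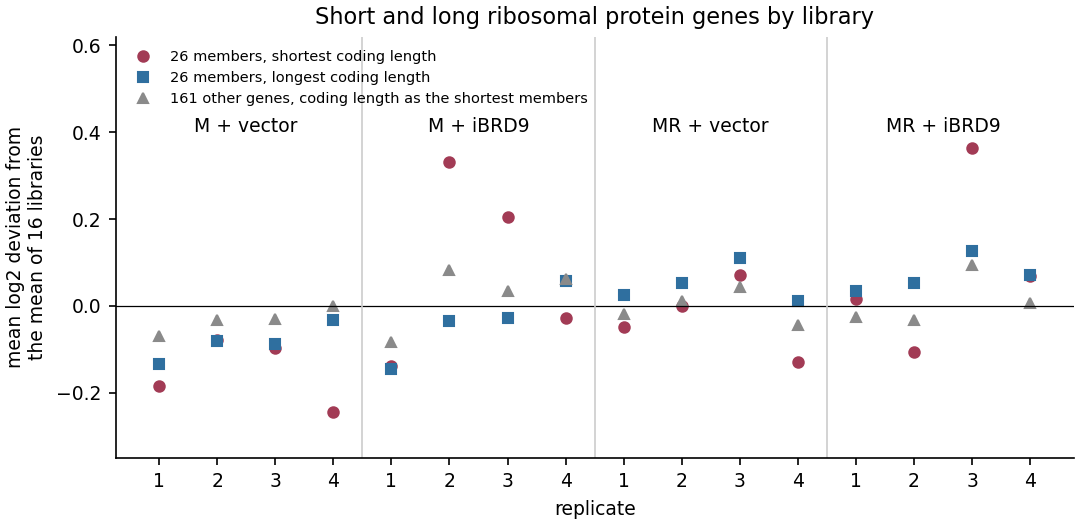
Mean log2 deviation from the average of all libraries for the 26 short and 26 long members and for 161 other genes as short as the former, with 1 point per library, by group. Replicates 2 and 3 of M + iBRD9 at 0.33 and 0.20 and replicate 3 of MR + iBRD9 at 0.36 stand above the others for the short members, while the long members lie between -0.15 and 0.13.

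In RANKL-treated BMDMs iBRD9 gave no call among the members. Of the 79, 0 were called higher, where 0.718% of all genes were called, and 0 lower, where 2.05% were called. Before adjustment 3 members were higher and 0 lower at p below 0.05, and DESeq2 called 0. The median was 0.04, with 64 members above 0 and 15 below. By length the medians were 0.11, 0.05 and 0.02 from short to long. Gene sets of the ribosome were examined in the study on these same samples, so the direction of such lists is not independent evidence here. Scaling by total counts alone moved the share of higher calls among all called genes from 25.9% to 38.5% in this comparison, and left the members at 0 calls.

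Whether the response to iBRD9 differed with RANKL was tested as the interaction, iBRD9 with RANKL minus iBRD9 without. Of the 79 members 0 were called higher and 0 lower, against 1.00% and 1.08% of all genes, with 0 higher and 1 lower before adjustment at p below 0.05 and 0 by DESeq2. The median was -0.07, and 67 members lay below 0. Rps27, called with iBRD9 without RANKL, had an interaction of -0.31 ± 0.14 (adjusted p = 0.328), and Rpl37 one of -0.27 ± 0.16 (adjusted p = 0.496). The difference between both responses, and equally that between the RANKL responses with and without iBRD9, was therefore not shown for any member. With total counts alone as the scaling, the share of higher calls among all genes called in the interaction went from 48.1% to 67.3%.

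Members with a near copy elsewhere in the genome were compared pair by pair. Rps27l, a p53 target gene in people and mice, stood at 89.9 ± 3.60 CPM (mean ± SD, n = 4) in M + vector and 96.5 ± 11.1 in M + iBRD9, a change of 0.10 ± 0.07 (adjusted p = 0.432), where Rps27 was called. The difference between the paralogues was not tested. Rpl22, needed for the development of T cells in mice, rose with RANKL and vector from 124, 134, 126 and 115 to 135, 131, 152 and 135 CPM, a change of 0.15 ± 0.06 (adjusted p = 0.0427) with 1 library of each group overlapping, that lost its call without replicate 1, 3 or 4 of either group, at 0.10 to 0.16. Rpl22l1 was at 7.24, 7.77, 6.86 and 5.91 CPM in M + vector, 7.71, 11.1, 9.41 and 7.07 in M + iBRD9, 5.49, 7.72, 6.02 and 5.02 in MR + vector and 7.65, 4.94, 8.76 and 7.72 in MR + iBRD9, overlapped between all groups and was not called in any comparison.

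Rpl39, one of the small proteins lining the exit tunnel, was called with iBRD9 without RANKL at 0.41 ± 0.12 (adjusted p = 0.0382), going from 79.5, 83.6, 84.2 and 66.2 to 75.4, 137, 115 and 88.5 CPM with overlap. The call was lost without any 1 of the M + vector libraries or without M + iBRD9 replicate 2 or 3, at 0.24 to 0.44. Rpl3, close to the peptidyl transferase centre, was at 765 to 789 CPM in M + vector and 836 to 904 in MR + vector without overlap, a change of 0.16 ± 0.04 (adjusted p = 0.000619). With iBRD9 it was called at 0.11 ± 0.04 (adjusted p = 0.014), and lost the call without M + iBRD9 replicate 1 or MR + iBRD9 replicate 3, at 0.08 and 0.09. Rpl7 was called with RANKL neither with vector, at 0.05 ± 0.04 (adjusted p = 0.31), nor with iBRD9, at -0.02 ± 0.04 (adjusted p = 0.785). Its relative Rpl7l1, whose yeast counterpart acts in ribosome assembly, changed by 0.10 ± 0.05 (adjusted p = 0.106) with vector and was called at 0.17 ± 0.05 (adjusted p = 0.00434) with iBRD9, from 88.8, 94.0, 97.9 and 103 to 103, 110.2, 109.6 and 109 CPM. Those groups overlapped by 1 library, the first of MR + iBRD9. Rps4x was not called with RANKL and vector at 0.09 ± 0.04 (adjusted p = 0.0881) nor with iBRD9 alone at 0.13 ± 0.04 (adjusted p = 0.0765).

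Members with an annotated TOP-like start were set beside those with another start. Of the 13, 4 were called higher with RANKL and vector, with a median change of 0.17, and of the 46 other tested members with a window 14, with a median of 0.11. With RANKL and iBRD9 the counts were 4 of 13, and 10 higher and 1 lower of 46. With iBRD9 without RANKL they were 3 of 13 with a median of 0.16 and 7 of 46 with a median of 0.09. Of all tested genes, 20.1%, 24.6% and 3.08% were called higher in these comparisons, in the same order, and 20.6%, 25.8% and 3.73% lower. The 2 classes overlapped in their changes, and their difference was not tested.

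The genes that build ribosomes were called more often with RANKL than the genes of the ribosome itself, a difference in counts that was not tested. Of 50 ribosome biogenesis genes, the factors that transcribe, cut and assemble rRNA, 41 were called higher and 0 lower with RANKL and vector, with a median of 0.34, where the ribosomal protein genes had 26 of 79 and 0.12. Ddx21, an RNA helicase of the nucleolus, rose by 0.50 ± 0.05 (adjusted p = 1.22e-09) and Dkc1, the pseudouridine synthase of rRNA, by 0.75 ± 0.07 (adjusted p = 5.01e-10). With RANKL and iBRD9 47 were called higher and 0 lower, with a median of 0.61, among them Nop58, a core protein of box C/D particles, at 1.12 ± 0.07 (adjusted p = 1.43e-15). With iBRD9 without RANKL the direction was the other one, with 0 higher, 12 lower and a median of -0.16, and Nop58 at -0.47 ± 0.07 (adjusted p = 3.12e-05), while in the same libraries 15 ribosomal protein genes were called higher. The count of 12 was 7 without M + vector replicate 3 or M + iBRD9 replicate 2, 19 without M + iBRD9 replicate 4, and 5 without the 3 libraries in which short ribosomal protein genes stood highest. In the interaction 11 of the 50 were called higher, with Nop58 at 0.61 ± 0.09 (adjusted p = 0.000342) and Nop2, an rRNA methyltransferase, at 0.50 ± 0.10 (adjusted p = 0.00624). This count was 6 without M + vector replicate 3, 7 without M + iBRD9 replicate 2, 4 without MR + vector replicate 2 or MR + iBRD9 replicate 4, and 24 without M + iBRD9 replicate 4. With iBRD9 in RANKL-treated cells 0 were called in either direction, against 14 higher and 0 lower before adjustment at p below 0.05, and the median was 0.10. Omitting 1 library gave up to 3 higher calls, leaving out the filter on low counts 4, the replicate block 4 and a fit of only the groups compared 6. Among all tested genes, 20.1% were called higher and 20.6% lower with RANKL and vector, and 24.6% and 25.8% with RANKL and iBRD9. The shares were 3.08% and 3.73% with iBRD9 without RANKL, 1.00% and 1.08% in the interaction, and 0.718% and 2.05% with iBRD9 in RANKL-treated cells.

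The proteins of the mitochondrial ribosome, which translates the few mRNAs of the organelle, were set beside the cytosolic ones. Of 78 tested, 14 were called higher and 3 lower with RANKL and vector, with a median of 0.10, and 29 and 4 with RANKL and iBRD9, with a median of 0.14. The 14 are 17.9% of the list, where 20.1% of all tested genes were called higher, and the 29 are 37.2%, where 24.6% of all genes were. Without the 3 libraries in which short ribosomal protein genes stood highest the 29 became 16. The count of 14 was 7 without MR + vector replicate 3. With iBRD9 without RANKL edgeR and DESeq2 called 0 in either direction, with 8 higher and 6 lower before adjustment at p below 0.05, and the median was -0.01, against 15 calls and 0.10 for the cytosolic family. Mrps34, of the small mitochondrial subunit, was the 1 member called with iBRD9 in RANKL-treated cells, at 0.53 ± 0.13 (adjusted p = 0.0199), and lost its call without MR + vector replicate 1 or 2 or MR + iBRD9 replicate 3, at 0.44 to 0.48.

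**Figure D5:**
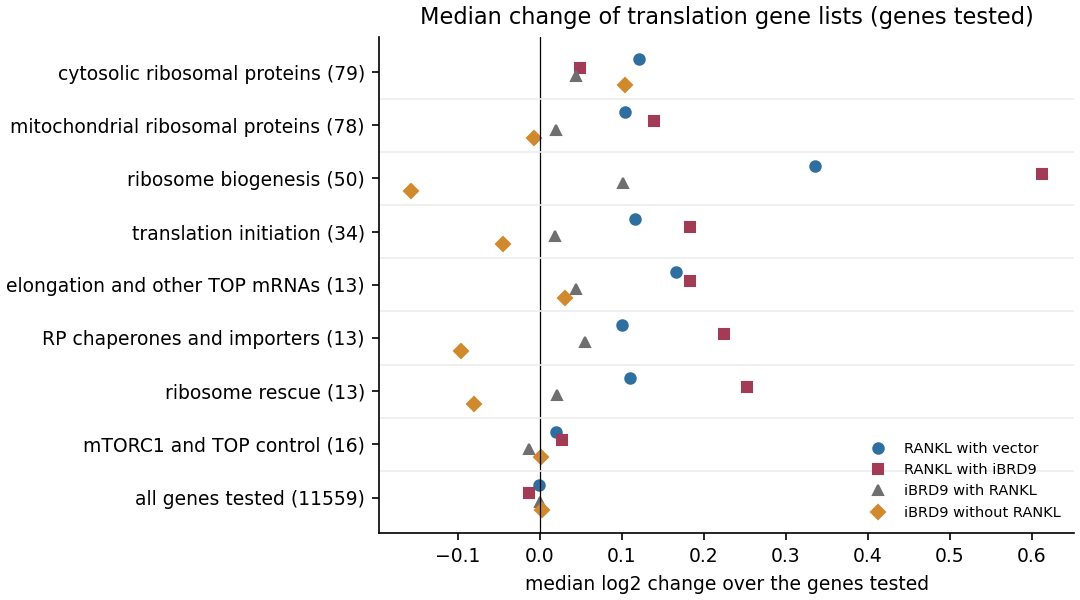
Median log2 change in each comparison except the interaction, with 1 marker per list and comparison. The lists are cytosolic ribosomal protein genes, mitochondrial ribosomal protein genes, ribosome biogenesis genes and the other translation lists. The number of genes tested stands in parentheses. Ribosome biogenesis lies at 0.34 and 0.61 under RANKL and -0.16 with iBRD9 without RANKL, where the cytosolic ribosomal protein genes are at 0.12, 0.05 and 0.10.

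The other parts of the translation machinery, like all tested genes, gave fewer calls with iBRD9 than with RANKL. Of all genes 20.1% were called higher and 20.6% lower with RANKL and vector, 24.6% and 25.8% with RANKL and iBRD9, and 3.08% and 3.73% with iBRD9 without RANKL. Of 34 initiation factors 15 rose with RANKL and vector and 22 with RANKL and iBRD9, with 0 lower in both. Eif5a, the hypusinated factor, was at 0.55 ± 0.04 (adjusted p = 1.38e-12) and Eif6, which keeps free 60S subunits apart from the 40S, at 0.55 ± 0.05 (adjusted p = 2.47e-10). With iBRD9 without RANKL 3 of them fell, among them the scaffold Eif4g1 at -0.17 ± 0.03 (adjusted p = 0.00181) and Eif3b at -0.19 ± 0.04 (adjusted p = 0.00606), and 0 rose. Without M + iBRD9 replicate 4 the count was 8, and without the 3 libraries in which short ribosomal protein genes stood highest it was 1, with the call of Eif3b lost. Of 13 elongation factors and other mRNAs with a known TOP tract, 10 rose and 1 fell with RANKL and vector. Vim, an intermediate filament gene, rose by 0.53 ± 0.03 (adjusted p = 1.71e-14) and Eef1g, a subunit of the elongation factor exchange complex, by 0.38 ± 0.04 (adjusted p = 1.58e-10), and Tpt1, a growth-related gene with a TOP tract, was the 1 that fell, at -0.39 ± 0.04 (adjusted p = 2.42e-10). In this list 11 rose and 2 fell with RANKL and iBRD9, the latter count being 1 without replicate 1, 2 or 3 of M + vector, 2 or 4 of M + iBRD9, or 1 or 4 of MR + iBRD9, and 0 were called by edgeR or DESeq2 with iBRD9 without RANKL, where 2 were higher and 0 lower before adjustment at p below 0.05.

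Of 16 genes of mTORC1 signalling and TOP mRNA control, 4 rose and 5 fell with RANKL and vector and 7 and 6 with RANKL and iBRD9, the former 25% and 31.25% of the list beside 20.1% and 20.6% of all genes. Larp1, which binds the TOP tract, rose by 0.41 ± 0.05 (adjusted p = 1.93e-08), and Eef2k, the kinase that halts elongation, was at -0.75 ± 0.11 (adjusted p = 7.05e-07). Of 13 chaperones and importers of ribosomal proteins 6 rose and 1 fell with RANKL and vector, and 9 and 1 with RANKL and iBRD9. The importin Ipo5 was called lower with iBRD9 without RANKL at -0.19 ± 0.04 (adjusted p = 0.00185), and Grwd1, the chaperone of Rpl3, was called higher in the interaction at 0.58 ± 0.13 (adjusted p = 0.0187). Grwd1 lost its call without M + vector replicate 3, MR + vector replicate 2 or MR + iBRD9 replicate 4, at 0.51 to 0.55. Of 13 genes of ribosome rescue and quality control 5 rose and 1 fell with RANKL and vector and 8 and 1 with RANKL and iBRD9, and Abce1, which splits ribosomes after termination, and the ubiquitin ligase Ltn1 were called lower with iBRD9 without RANKL at -0.29 ± 0.06 (adjusted p = 0.0041) and -0.22 ± 0.06 (adjusted p = 0.0186). Ltn1 lost its call without M + vector replicate 3 or M + iBRD9 replicate 2, at -0.19 and -0.18. The calls of Ipo5, Abce1 and Ltn1 were lost without the 3 libraries in which short ribosomal protein genes stood highest. In the rescue list the 5 higher calls with RANKL and vector were 3 without M + vector replicate 1, and the 1 lower call with RANKL and iBRD9 became 2 without M + iBRD9 replicate 4 and 0 without those 3 libraries. Of ribosome genes that the naming rule does not take, 3 were tested, and Rack1, a scaffold on the 40S head, was called at 0.14 ± 0.04 (adjusted p = 0.0107) with RANKL and vector.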

How the data were processed

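The 16 libraries (NEBNext Ultra II, total RNA of BMDMs) were sequenced by the authors. Cutadapt was used to trim the reads, HISAT2 to align them to GRCm39 and HTSeq to count them by gene. The authors deposited unnormalized counts for each gene and library, beside FPKM values that they derived from these counts and a gene length. Strand and multi-mapping settings and the annotation release are not given in the sources used here. From the counts, edgeR 4.0.16 (R 4.3.3, limma 3.58.1) was fitted with TMM scaling, filterByExpr by group and a quasi-likelihood test on 4 group means without covariates, which kept 11559 genes and left out 10339. There were 12 residual degrees of freedom, and the common biological coefficient of variation was 5.86%. Every adjusted p is Benjamini-Hochberg over all tested genes, two-sided, and a gene was called below 0.05. CPM use TMM sizes. DESeq2 1.42.0, other scalings, no filter, a replicate block, the compared groups alone and the omission of each library were alternatives. The fit was tested on simulated counts drawn separately for each gene. Beyond library size these held no shift shared by the genes of a library. They therefore cannot show how far to trust calls that rest on such libraries.

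The members, the gene lists and the rule for named genes were chosen with earlier results of these data known. The rule named, per comparison and direction, the 4 called members with the smallest p, fixed paralogue pairs, the stalk genes, 7 further members, the 3 highest and 3 lowest by FPKM, and per list and comparison the 2 called genes with the smallest p in each direction. Not all of the list genes are printed, and some genes are not reported here by name. No row was named Rps4l. Coding lengths are those of GENCODE vM39. Promoter windows are those of RefSeq. Total counts were 15372775 to 18987926 per library. The floor given for a gene without reads covers counting error alone. Each SE of a change comes from the fit and includes the spread between libraries. Libraries of a group differed beyond counting error in all 24 pairs (chi-square per degree of freedom 2.83 to 11.7).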

Additional observations from a re-analysis of the deposited data

Results flagged for a closer look

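In 3 of 120 groups of 4 libraries, taken over the named members and the family's share of counts, 1 library lay far from the other 3 by Dixon's test at the 95% level, which chance does in about 5% of groups. Rpl22 stood at 161.8 CPM in MR + iBRD9 replicate 3, where the other libraries of the group were at 140.8 to 142.9 CPM. Rpl7l1 stood at 103.3 CPM in MR + iBRD9 replicate 1, against 109.1 to 110.2 CPM. Rpl8 stood at 720.2 CPM in M + iBRD9 replicate 4, against 609.4 to 625.6 CPM.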

How the results depend on the processing

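The count of members called higher with RANKL and vector was 44 when only the groups compared were fitted, and that of lower calls was 1 without the filter on low counts. With RANKL and iBRD9 the higher count was 32 with total counts as the only scaling, where 3412 of all 11559 tested genes were called higher. The members' share was then above that of all genes. The lower count was 0 with DESeq2 size factors, with total counts, with scaling that left out ribosomal protein genes, with DESeq2 and with only the groups compared. With iBRD9 in RANKL-treated cells the higher count was 2 without the filter. With iBRD9 without RANKL the higher count was 4 with DESeq2, 23 with the replicate block and 0 without the 3 libraries in which short members stood highest, an alternative chosen after the data had been seen, and the lower count was 1 without the filter. The cause of these moves was not tested. Leaving out 1 library gave 20 to 32 higher and 0 lower calls for RANKL with vector, 11 to 29 and 0 to 4 for RANKL with iBRD9, 1 to 35 and 0 to 2 for iBRD9 without RANKL, and 0 for iBRD9 with RANKL and for the interaction. Their medians ran from 0.09 to 0.14, from 0.00 to 0.09, from 0.08 to 0.15, from 0.00 to 0.07 and from -0.11 to -0.03. Whether the replicate numbers pair the samples was not settled by the values. Correlations of same-numbered deviations ran from -0.014 to 0.14, and 6 of 16 libraries correlated best with their own number. The block gave 37, 21 and 23 higher calls for RANKL with vector, RANKL with iBRD9 and iBRD9 without RANKL. Of 4165 values of the 35 members that were tracked, 4018 kept their direction and their side of the threshold, 88 lost a call, 59 gained one and 0 reversed. Of 1458 values of list genes, 61 lost their call and 0 reversed. Ratios of the family's share to M + vector ran from 1.05 to 1.09 in M + iBRD9, 1.09 to 1.12 in MR + vector and 1.12 to 1.16 in MR + iBRD9 when 1 library was left out. Rps10, Rpl23a and Rpl13a had at most 144 reads in a library.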
